A study of Homo sapiens with 6 samples.

Results

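The miR-130/miR-301 family was followed in small RNA libraries of MDA-MB-231 cells, an established human triple-negative breast cancer line. Its members were taken by name, as every row of the deposited table that belongs to the hairpins miR-130a, miR-130b, miR-301a or miR-301b. This gave 6 of 413 miRNAs, namely hsa-miR-130a-3p, hsa-miR-130b-3p, hsa-miR-130b-5p, hsa-miR-301a-3p, hsa-miR-301a-5p and hsa-miR-301b-5p. The cells had been exposed for 24 h to 2 µM Withaferin A (WA), a steroidal lactone of Withania somnifera, in 3 libraries, and to no WA in the other 3. These control libraries are called vehicle, as in the study's methods, which name DMSO. The sample labels differ, as they describe these cells as "without treated" and name no DMSO. All 6 libraries share the cell line. The study's methods call the replicates independent, but neither they nor the labels say whether these were separate cultures, so p-values measure only the spread between these samples.

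A miRNA precursor hairpin is cut into a duplex, from which a 5p or a 3p strand can be loaded into an Argonaute protein. The loaded strand pairs with mRNAs mainly through its seed, bases 2 to 8, so miRNAs that share a seed can share targets. The 3p strands of this family are known for such a shared seed and have been linked to vessel, lung and breast cancer biology.

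The sequences below show what the family has in common, with the seed in capitals. They are RefSeq mature sequences, matched by name for 368 of the 413 miRNAs, with positions in GRCh38.p14. miR-454-3p, from a hairpin beside that of miR-301a, is not a member by name but carries the same seed. miR-130a-3p and miR-301b-5p are named without a sequence.
miR-130b-3p (chr22:21653354-21653375, plus strand): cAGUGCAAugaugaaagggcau
miR-301a-3p (chr17:59151149-59151171, minus strand): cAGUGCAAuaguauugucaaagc
miR-454-3p (chr17:59137787-59137809, minus strand): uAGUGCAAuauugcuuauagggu
miR-130b-5p (chr22:21653316-21653336, plus strand): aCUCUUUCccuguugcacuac
miR-301a-5p (chr17:59151187-59151208, minus strand): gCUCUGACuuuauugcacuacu

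The seed AGUGCAA was held by 3 of the 368 miRNAs with a sequence, or 0.815%, and these were miR-130b-3p, miR-301a-3p and miR-454-3p. Behind the first 9 bases, which are the same in both, miR-130b-3p and miR-301a-3p went apart, with 11 of 22 positions identical when counted from the 5′ end. The 5p arms carry other seeds, CUCUUUC and CUCUGAC. miR-301b-3p would be a member by name but was not among the rows of the deposited table. It differs from miR-301a-3p at 2 of 23 positions, so reads of the one could have been counted as the other. How the authors counted reads shared between such miRNAs is not given in the sources used here.

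The genes of the family lie at 3 places. In the GENCODE release 44 annotation, MIR130A on chromosome 11 is intronic in the long noncoding RNA gene MIR130AHG. MIR301A and MIR454 lie on chromosome 17 with 13263 bases between them, both in introns of SKA2, a gene for a spindle and kinetochore protein. The hairpin of MIR130B on chromosome 22 starts 256 bases after miR-301b-3p and overlaps 2 annotated exons of a long noncoding RNA gene. The 82 bases of this hairpin are given here because both of its arms were measured, with miR-130b-5p (bases 13 to 33) and miR-130b-3p (bases 51 to 72) in capitals.
MIR130B hairpin (chr22:21653304-21653385, plus strand): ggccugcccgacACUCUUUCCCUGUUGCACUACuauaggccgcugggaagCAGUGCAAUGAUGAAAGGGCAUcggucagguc

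Values are the authors' normalized values, read counts divided by a size factor of each library. Every value was a whole multiple of a step of its library, and 1 step is 1 read if the size factors are those of the median of ratios, since the inverse of the step then equals the size factor, as it did in all 6 libraries. The vehicle libraries then held from 710878 to 4778066 reads, and the WA libraries from 156442 to 2232934. A count of 0 allows 3 reads, which are worth 17.4 normalized units in WA replicate 1, the shallowest library, and 0.857 in vehicle replicate 2, the deepest. Binomial intervals and these limits cover counting error only, while the intervals of log2 fold changes come from the spread between libraries. WA replicate 3 stood apart from its group. Across the 413 miRNAs, as a description, the log2 values of WA replicate 3 had a Pearson r of 0.630 and 0.641 with WA replicates 1 and 2, while these had an r of 0.964 with each other. With the vehicle libraries its r was higher, at 0.772, 0.797 and 0.774. Vehicle replicate 1 also stood apart, with an r of 0.785 and 0.792 with vehicle replicates 2 and 3, against 0.987 between these. The log2 fold change of each tested member is therefore also given without either library. All 5 miRNAs listed as abundant in this line were found, with miR-21-5p the most abundant of the table by mean normalized value. In WA replicate 3, however, miR-21-5p stood at 27029, below miR-221-3p of the same list at 169490. Of 7 epithelial miRNAs 5 were in the table. Their summed normalized value was 1862, 204 and 261 in vehicle replicates 1 to 3 and 800, 1006 and 1242 in the WA replicates.

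**Figure D1:**
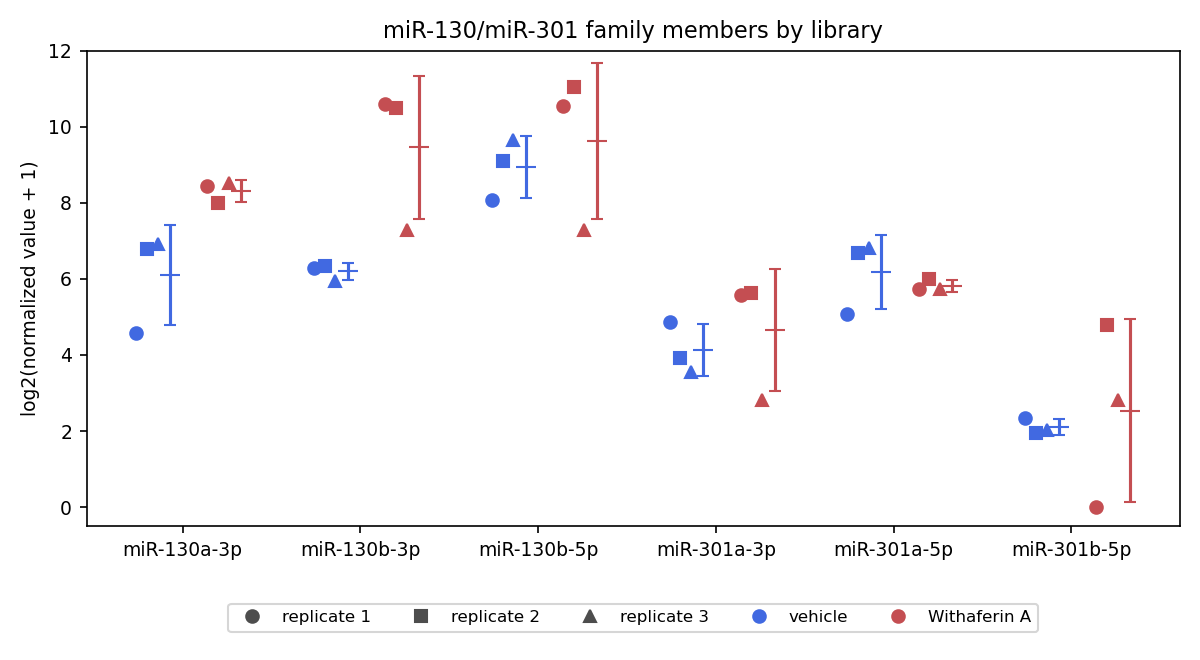
Each point is a library, with log2(normalized value + 1) on the vertical axis, the 6 family members on the horizontal axis, vehicle in blue and WA in red, and bars for the mean and SD of the 3 log2 values. All 3 WA libraries lie above all vehicle libraries for miR-130a-3p and miR-130b-3p, and WA replicate 3 (triangle) lies far below the other WA libraries for both arms of miR-130b.

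The largest difference in the family was that of miR-130b-3p, a strand that carries the family seed. Its normalized value was 77.2, 80.5 and 60.8 in vehicle replicates 1 to 3 and 1548, 1451 and 156 in WA replicates 1 to 3. The groups did not overlap, but WA replicate 3 lay nearer to the vehicle libraries than to the other WA libraries. Behind these values stood 57, 282 and 199 reads under vehicle and 267, 812 and 208 under WA. The mean was 72.9 ± 10.6 (SD, n = 3) under vehicle and 1052 ± 777 (SD, n = 3) under WA, a ratio of 14.4. The log2 fold change on the log2(normalized value + 1) scale was 3.27 (standard error 1.09, 95% confidence interval 0.73 to 5.81), with a limma p of 0.0183 that became 0.122 after Benjamini-Hochberg adjustment over 327 miRNAs. The difference therefore did not pass the correction, nor did it without vehicle replicate 1, at 3.32 with a limma adjusted p of 0.162. Without WA replicate 3 it was 4.35 (standard error 0.47) and passed, at a limma adjusted p of 0.00130, in a fit in which 9.79% of the miRNAs were called higher and 45.0% were called in either direction.

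miR-130a-3p, the 3p strand of the chromosome 11 hairpin, was high in WA replicate 3 as well as in the other WA libraries. Its normalized value was 23.0, 109 and 120 in vehicle replicates 1 to 3 and 348, 254 and 369 in WA replicates 1 to 3. Here the groups did not overlap, and the low library was vehicle replicate 1, with 17 reads. The mean was 84.1 ± 53.2 (SD, n = 3) under vehicle and 323 ± 61.3 (SD, n = 3) under WA, a ratio of 3.85. The log2 fold change of 2.23 (standard error 1.00, 95% confidence interval -0.11 to 4.57) did not pass the test, at a limma adjusted p of 0.211. It was 2.12 without WA replicate 3 and 1.47 without vehicle replicate 1, with limma adjusted p-values of 0.103 and 0.183.

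miR-301a-3p has the same seed but was the least abundant of the members that passed the filter on low values (10 normalized units or more in 3 or more of the 6 libraries). Its normalized value was 28.4, 14.3 and 10.7 under vehicle and 46.4, 48.2 and 6.01 under WA, in the order of replicates 1 to 3 that is kept from here on. WA replicates 1 and 2 lay above every vehicle library and WA replicate 3 below every one, so the groups overlapped. In WA replicates 1 to 3 only 8, 27 and 8 reads stood behind these values. At 0.55 (standard error 1.26), the log2 fold change came with a 95% confidence interval of -2.41 to 3.50 and a limma adjusted p of 0.781, so that sizeable changes in either direction lie within the interval. Without WA replicate 3 it was 1.47, with a limma adjusted p of 0.138, and without vehicle replicate 1 it was 0.92, with one of 0.623.

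The 5p strands, which lack the family seed, came next. miR-130b-5p gave normalized values of 268, 549 and 808 under vehicle and 1490, 2128 and 154 under WA. As with miR-301a-3p, WA replicates 1 and 2 were the highest and WA replicate 3 the lowest of the 6 libraries. The log2 fold change of miR-130b-5p was 0.68 (standard error 1.11), its 95% confidence interval ran from -1.91 to 3.27, and its limma adjusted p was 0.687. Without WA replicate 3 it was 1.85, with a limma adjusted p of 0.0548, and without vehicle replicate 1 it was 0.24, with one of 0.898.

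miR-301a-5p gave 32.5, 102 and 112 normalized units under vehicle and 52.2, 62.5 and 51.8 under WA. The WA libraries lay close together and inside the range of the vehicle libraries. It was the only tested member with a negative log2 fold change, at -0.37 (standard error 1.09, 95% confidence interval -2.92 to 2.17), and its limma adjusted p was 0.822. Without WA replicate 3 it was -0.33 and without vehicle replicate 1 it was -0.94, with limma adjusted p-values of 0.770 and 0.475. miR-301b-5p, with normalized values of 4.06, 2.86 and 3.06 under vehicle and 0, 26.8 and 6.01 under WA, did not pass the filter. It held 3, 10 and 10 reads under vehicle and 0, 15 and 8 under WA, and the groups overlapped. In a fit with no filter its log2 fold change was 0.43 (standard error 1.23), at a limma adjusted p of 0.815.

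By mean normalized value, with no correction for length or for ligation, miR-130b-5p led the family in both groups, at 542 ± 270 (SD, n = 3) under vehicle and 1257 ± 1007 (SD, n = 3) under WA. Under vehicle it was followed by miR-130a-3p at 84.1, miR-301a-5p at 82.0 ± 43.1 (SD, n = 3) and miR-130b-3p at 72.9, which did not differ beyond their spread. miR-301a-3p came after these at 17.8 ± 9.38 (SD, n = 3), above miR-301b-5p. Under WA the order was miR-130b-5p, miR-130b-3p, miR-130a-3p, miR-301a-5p at 55.5 ± 6.08 (SD, n = 3), and miR-301a-3p at 33.5 ± 23.9 (SD, n = 3), and miR-130b-3p lay within the spread of miR-130b-5p. The WA libraries did not share this order, as miR-130b-3p led in replicate 1, miR-130b-5p in replicate 2 and miR-130a-3p in replicate 3, while miR-130b-5p led in every vehicle library.

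Of the 6 members, 5 entered the test and 0 of them passed it by limma at an adjusted p under 0.05, against 5.50% of all 327 tested miRNAs, of which 0.306% were called higher and 5.20% lower. At an unadjusted p under 0.05 there was 1 member, miR-130b-3p, against 26.3% of the tested miRNAs in either direction and 4.59% higher. The groups did not overlap, with WA higher, for 2 of the 5 (miR-130a-3p and miR-130b-3p), and for 7.65% of all tested miRNAs. For 19.6% of these, and for no member, the WA libraries were all lower, which makes 27.2% in either direction. For both, an exact permutation test of the group means gave a two-sided p of 0.1, the smallest that 3 libraries against 3 allow. The median log2 fold change was 0.68 over the 5 tested members, while it was -0.91 over all tested miRNAs, of which 198 had a negative value. Zeros were uneven between libraries. Of the 413 miRNAs, 166, 146 and 52 were at 0 in WA replicates 1 to 3, and 21, 3 and 2 in vehicle replicates 1 to 3. The part of these zeros in the background median and in the shares of lower miRNAs was not tested. Under upper-quartile scaling the median of all tested miRNAs was -0.66, a shift of 0.251, and the log2 fold change of miR-130b-3p was 3.54.

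**Figure D2:**
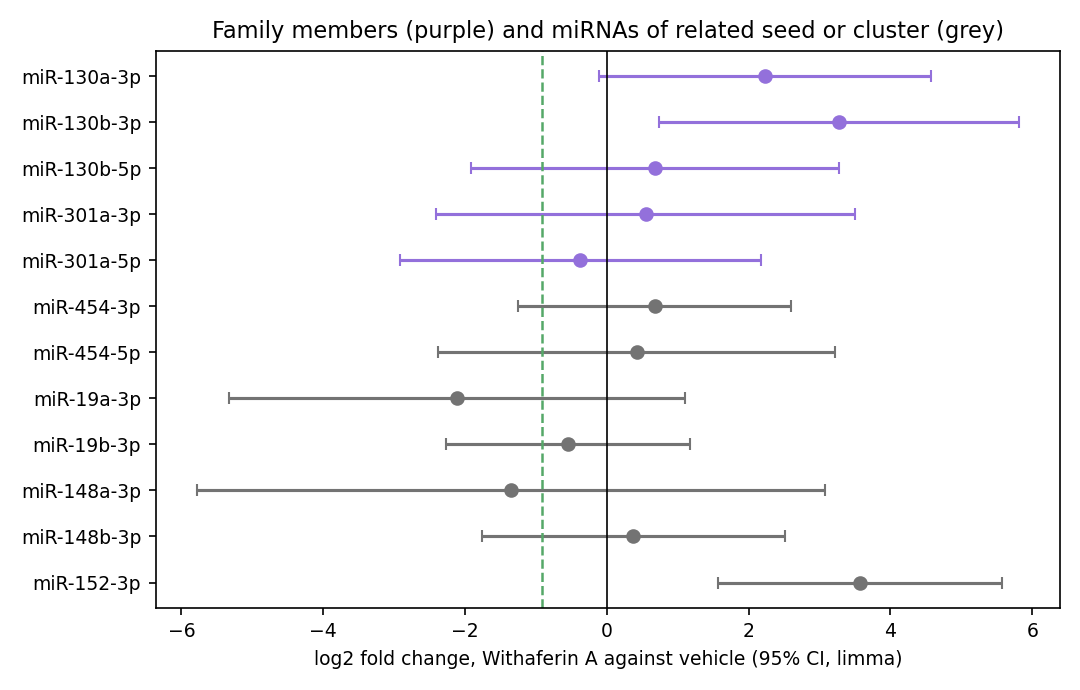
The horizontal axis gives the limma log2 fold change of WA against vehicle with its 95% confidence interval, for the 5 tested members (purple) and for miRNAs of the same or an overlapping seed or the same cluster (grey). The dashed line marks the median of all 327 tested miRNAs at -0.91. The intervals of miR-130b-3p and miR-152-3p lie above 0.

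**Figure D3:**
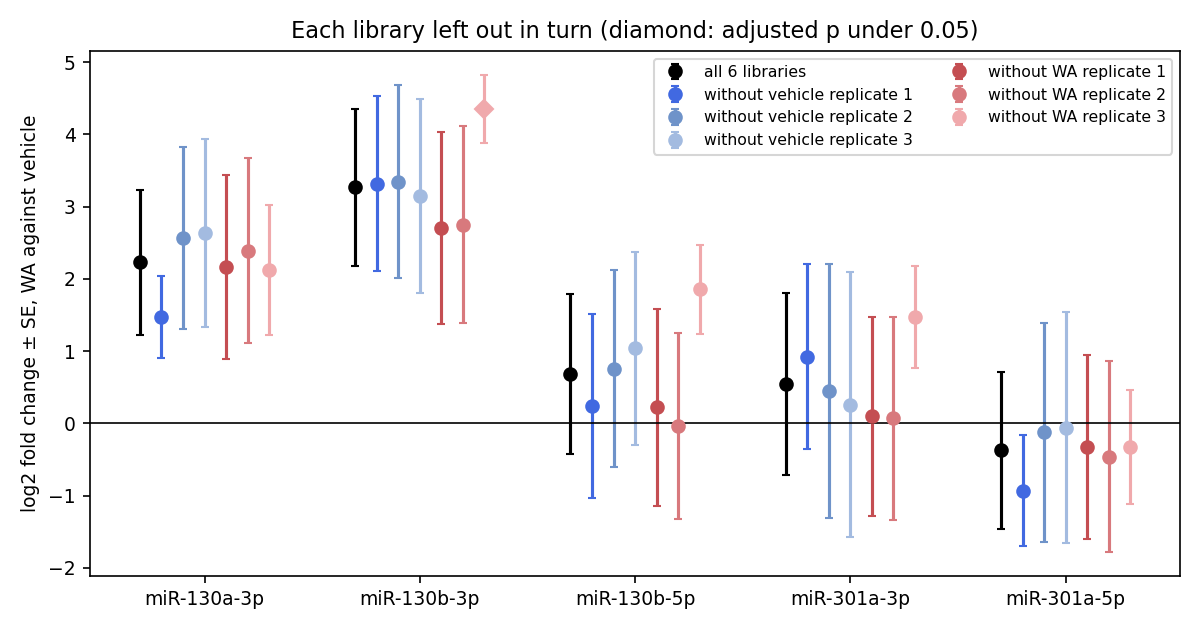
The vertical axis gives the limma log2 fold change of each tested member with its standard error, from all 6 libraries (black) and with each library left out in turn (blue and red). A diamond marks a limma adjusted p under 0.05, which was reached for miR-130b-3p without WA replicate 3 and for no other member or left-out library.

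Ratios between 2 miRNAs within a library do not depend on the scaling between libraries, and here they set the family members against each other. The ratio of miR-301a-3p to miR-130b-3p was 0.368, 0.177 and 0.176 in vehicle replicates 1 to 3 and 0.0300, 0.0333 and 0.0385 in WA replicates 1 to 3. WA replicate 3 lay with its group in this ratio, and the groups did not overlap. On the log2 scale the mean was -2.08 ± 0.58 (SD, n = 3) in the vehicle and -4.80 ± 0.28 (SD, n = 3) in the WA libraries, a difference of -2.72 (exact permutation test, two-sided p = 0.1). Leaving out any 1 library kept the difference between -2.89 and -2.39.

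miR-130a-3p did not keep step with miR-130b-3p. Their ratio was 0.298, 1.35 and 1.98 under vehicle and 0.225, 0.175 and 2.36 under WA, a log2 difference of -1.04 (exact permutation test, two-sided p = 0.5), which ran from -2.23 without WA replicate 3 to -0.36 without WA replicate 2. The ratio of miR-301a-3p to miR-130a-3p also overlapped between the groups, with a log2 difference of -1.68 (exact permutation test, two-sided p = 0.5) that ran from -2.38 without vehicle replicate 3 to -0.55 without vehicle replicate 1. In all, 6 such ratios were computed, and none could reach a p under 0.1.

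The arms of the miR-130b hairpin, whose sequence is given above, were set against each other within each library. The 3p arm held 22.4%, 12.8% and 7.00% of the reads of both arms in vehicle replicates 1 to 3, and 51.0%, 40.5% and 50.4% in WA replicates 1 to 3. The highest vehicle share had an exact binomial 95% confidence interval of 17.4% to 28.0% from 255 reads, and the lowest WA share one of 38.4% to 42.7% from 2003 reads. The groups did not overlap, and WA replicate 3 had nearly the share of WA replicate 1. In WA replicate 3 both arms were lower than in the other WA libraries, but only the 5p arm was below the vehicle libraries. Arm ratios were looked at only after these values had been seen. To set them against other hairpins, the log2 ratio of 3p to 5p was compared by limma for the 80 hairpins with both arms past the filter. For miR-130b it was 2.59 higher in the WA libraries (standard error 1.00, 95% confidence interval 0.31 to 4.87), with a limma p of 0.0305 and an adjusted p of 0.181, which did not pass. It ranked 10 among the 80 hairpins. By limma 0 of the 80 hairpins (0.00%) had an adjusted p under 0.05 and 16 (20.0%) an unadjusted p under 0.05. The groups did not overlap in 26.2%, and in 15.0% the WA libraries were all higher.

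For the miR-301a hairpin the 3p arm held 46.7%, 12.3% and 8.75% of the reads under vehicle and 47.1%, 43.5% and 10.4% under WA. Vehicle replicate 1 lay with WA replicates 1 and 2, and WA replicate 3 with the other vehicle libraries. The log2 ratio of its arms differed by 0.92 (standard error 1.27, 95% confidence interval -1.98 to 3.82), with a limma adjusted p of 0.816. It ran from 0.32 without vehicle replicate 3 to 1.86 without vehicle replicate 1. WA replicate 1 held only 17 reads of this hairpin.

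**Figure D4:**
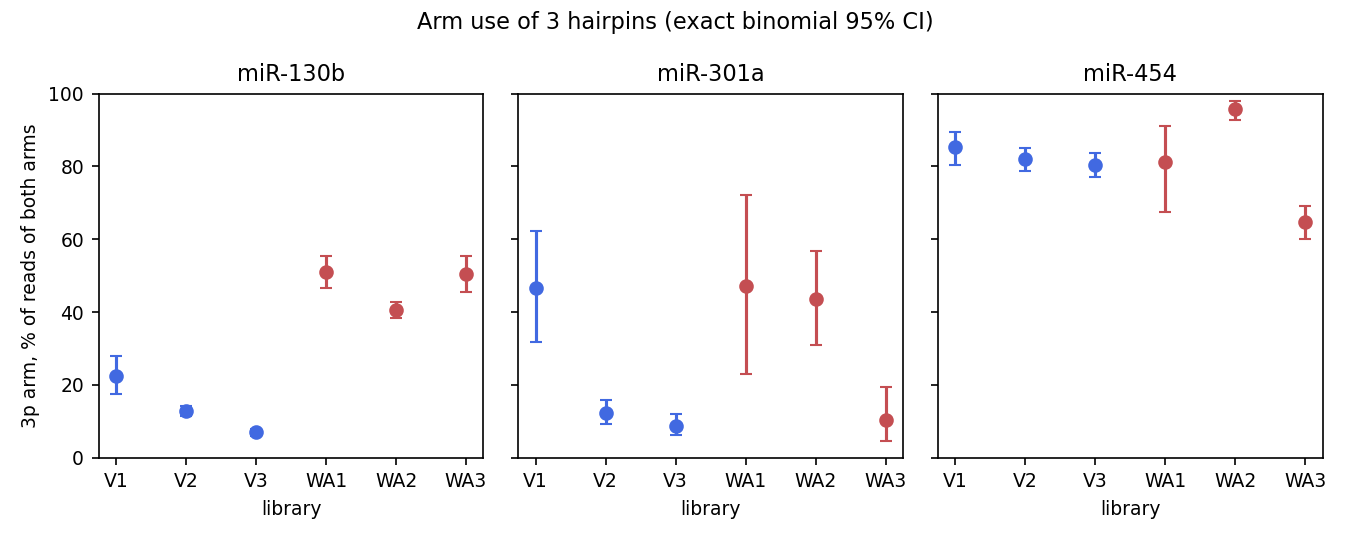
The vertical axis gives the 3p arm in percent of the reads of both arms, with exact binomial 95% confidence intervals, for the hairpins miR-130b, miR-301a and miR-454 in vehicle libraries V1 to V3 (blue) and WA libraries WA1 to WA3 (red). For miR-130b the WA libraries lie between 40.5% and 51.0% and the vehicle libraries at 22.4% or lower, while for the other hairpins the groups overlap.

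As a share of all reads of a library, the 6 members together held 0.0450%, 0.0628% and 0.0869% in vehicle replicates 1 to 3 and 0.384%, 0.393% and 0.0443% in WA replicates 1 to 3. The exact binomial 95% confidence intervals ran from 0.0402% to 0.0502% in vehicle replicate 1 and from 0.0416% to 0.0471% in WA replicate 3, so these libraries could not be told apart. The 3p members, which carry the seed, made up 0.0134%, 0.0149% and 0.0150% under vehicle, with a mean of 0.0144% ± 0.000912 (SD, n = 3). In the WA libraries they made up 0.214%, 0.174% and 0.0317%, all above the vehicle libraries. No test was made of these sums.

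The make-up of the reads with the family seed, counting miR-454-3p, also differed between libraries. miR-454-3p was the most abundant of the 4 miRNAs in each vehicle library, with 69.5%, 39.3% and 43.0% of their reads. In the WA libraries its share was 10.4%, 20.6% and 29.3%. miR-130b-3p held between 18.1% and 24.0% of them in the vehicle libraries, 71.4% and 65.7% in WA replicates 1 and 2, and 20.8% in WA replicate 3. In that library miR-130a-3p led with 49.1%.

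**Figure D5:**
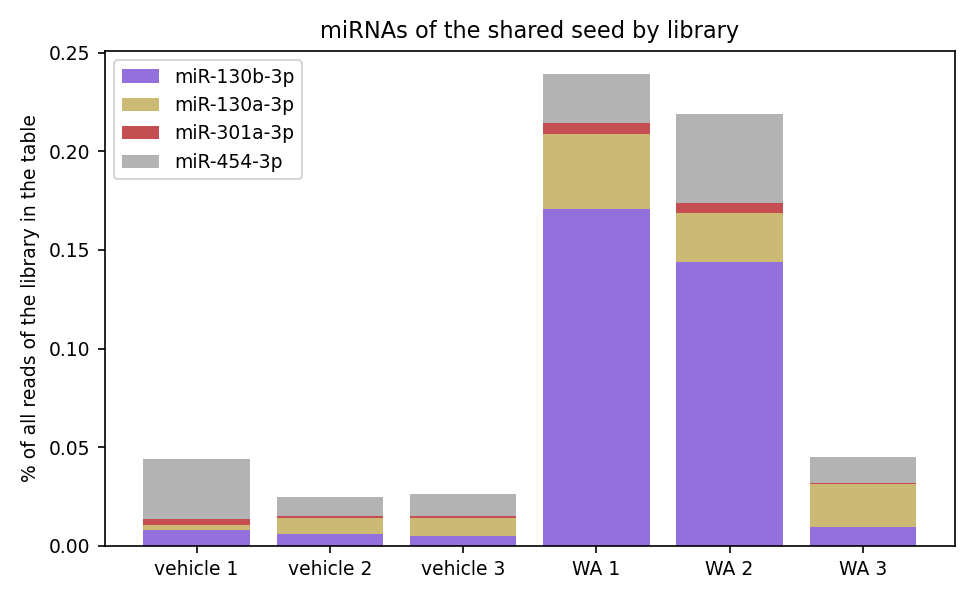
Stacked bars give miR-130b-3p, miR-130a-3p, miR-301a-3p and miR-454-3p in percent of all reads of a library. The stacks reach 0.239% and 0.219% in WA replicates 1 and 2, 0.0448% in WA replicate 3, and from 0.0246% to 0.0437% in the vehicle libraries.

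miR-454-3p itself gave normalized values of 293, 132 and 145 under vehicle and 226, 456 and 220 under WA, with overlapping groups. Its log2 fold change was 0.67 (standard error 0.82) and its limma adjusted p 0.608. The ratio of miR-130b-3p to miR-454-3p was 0.264, 0.612 and 0.421 under vehicle and 6.85, 3.18 and 0.710 under WA, a log2 difference of 2.60 between groups that did not overlap (exact permutation test, two-sided p = 0.1). For miR-130a-3p and miR-301a-3p the ratio to miR-454-3p overlapped between the groups, with log2 differences of 1.55 (exact permutation test, two-sided p = 0.3) and -0.13 (exact permutation test, two-sided p = 0.9). The first ran from 0.44 without vehicle replicate 1 to 2.12 without vehicle replicate 3.

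Among the 368 miRNAs with a sequence, 5 others held 6 bases of the family seed within bases 1 to 9. These were miR-19a-3p and miR-19b-3p with GUGCAA, and miR-148a-3p, miR-148b-3p and miR-152-3p with AGUGCA. Of these 5 tested miRNAs 0 had a limma adjusted p under 0.05 and 1, miR-152-3p, had an unadjusted p under 0.05, against 5.50% and 26.3% of all tested miRNAs. Their median log2 fold change was -0.55, beside -0.91 over all tested miRNAs. miR-152-3p, which is known for repressing the DNA methyltransferase DNMT1, gave normalized values of 98.9, 72.0 and 59.6 under vehicle and 1270, 1522 and 385 under WA. The log2 fold change was 3.57 (standard error 0.86) at a limma adjusted p of 0.0601, and its pattern over the 6 libraries had a Pearson r of 0.964 with that of miR-130b-3p. The log2 fold changes of miR-19a-3p, miR-19b-3p and miR-148a-3p were -2.11, -0.55 and -1.35, with limma adjusted p-values of 0.368, 0.620 and 0.633. With 1 library left out, that of miR-19a-3p ran from -3.22 without vehicle replicate 1 to -1.20 without WA replicate 3, and that of miR-148a-3p from -3.60 without vehicle replicate 1 to -0.21 without vehicle replicate 3. That of miR-148b-3p was 0.38 and became -0.55 without vehicle replicate 1.

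The tested miRNAs whose log2 values followed a member most closely over the 6 libraries were taken by Pearson correlation, which here is a description of 6 points that share library depth and scaling. For miR-130a-3p they were miR-191-3p (r = 0.975), miR-100-3p (0.946) and let-7i-3p (0.911), of which miR-191-3p and miR-100-3p were at 0 in vehicle replicate 1. For miR-130b-3p they were miR-199b-3p (0.977), miR-590-3p (0.974) and miR-31-5p (0.973), each of them high in WA replicates 1 and 2 and lower in WA replicate 3. By Spearman rank correlation these 3 had values of 0.886, 0.543 and 0.657. In WA replicate 3, miR-590-3p (27.8) and miR-31-5p (23.3) lay within the range of the vehicle libraries, unlike miR-130b-3p. For miR-130b-5p they were miR-331-5p (0.978), miR-340-3p (0.976) and miR-15b-3p (0.970). For miR-301a-3p they were miR-98-5p (0.984), miR-9-3p (0.970) and miR-181d-5p (0.961), and for miR-301a-5p they were miR-26a-5p (0.986), miR-27b-3p (0.977) and miR-7-5p (0.941). No miRNA was named for more than 1 member.

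Markers of fibroblasts are given beside miR-130b-3p because their summed level was also highest in WA replicates 1 and 2. Of the 5 miRNAs of that list 4 were in the table, among them miR-199b-3p, and miR-214-3p was not among its rows. The limma fit held 3 of these. Of them 0 had a limma adjusted and 2 an unadjusted p under 0.05, against 5.50% and 26.3% of all tested miRNAs. The 2 were miR-199a-3p and miR-199b-3p, of the same family, with log2 fold changes of 8.17 and 7.66. Whether reads were shared between them was not examined, so they are not taken as separate markers, and the sum below holds both. The other, miR-143-3p, had a log2 fold change of 3.22 with an unadjusted limma p of 0.0789. The summed normalized value of the list ran from 16.3 to 62.5 under vehicle. It was 6255 and 8052.5 in WA replicates 1 and 2 and 133 in WA replicate 3. The neural list, with 1 miRNA in the table, was also highest in WA replicates 1 and 2, at 522 and 613. It ran from 77.2 to 360 under vehicle and was 104 in WA replicate 3. The part of these miRNAs in the result was not tested. Library depth also differed, since WA replicates 1 and 2 had the fewest reads of the 6 libraries. With every library thinned to 156442 reads the log2 fold change of miR-130b-3p was 3.56 with a limma adjusted p of 0.122. The thinning was a random draw that was not repeated, and it kept the filter of the unthinned values. The part of depth in the result was not tested. The values hold no measure of cell number or of RNA per cell, so nothing can be said of either from these bulk samples.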

How the data were processed

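Small RNA libraries of MDA-MB-231 cells (3 vehicle, 3 WA) were sequenced by the authors. The steps run by the authors were trimming, Bowtie alignment to GRCh38.p10, removal of reads from other noncoding RNA classes, a match against mature miRNAs and DESeq2 scaling. The signal deposited by the authors is the read count of a miRNA divided by a size factor of its library. The deposited linear fold ratio, log2 fold change and p-values are the authors' own comparison and were not used. The step of each library equalled the inverse of its size factor recomputed by the median of ratios from 212 miRNAs, which fixes a step at 1 read if the authors used that method. No count model was run on these reads, since the values were deposited in normalized form and too few miRNAs were at 1 step to recover reads from low values alone. Read totals ran from 156442 to 4778066.

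Log2(normalized value + 1) was compared between the groups, without pairing, by two-sided limma tests with a variance trend (limma 3.58.1, R 4.3.3). Benjamini-Hochberg adjustment was over the 327 miRNAs that reached 10 normalized units in 3 or more libraries. Ratios within a library were compared by exact permutation tests in scipy 1.17.1. On simulated data with log2 changes of 3, limma called 93 of 94 changed and 2 of 267 unchanged miRNAs. The simulation gave all miRNAs the same dispersion and held no library that stood apart from its group. It therefore does not show how often such changes would be found in these libraries. The members and lists were chosen with earlier results of these data known. Named were all members, miR-454-3p, the miRNAs of an overlapping seed, and the 3 miRNAs most correlated with each tested member. A further list is not reported here. miR-199a-3p, miR-199b-3p and miR-143-3p, all of the fibroblast list, were named in the text after their values were seen. Alternatives were other scalings, filters and pseudocounts, no variance trend, the replicate number as a block, thinning, and each library left out.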

Additional observations from a re-analysis of the deposited data

How the results depend on the processing

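The 5 tested members kept their direction and their side of the threshold under total-count, upper-quartile and trimmed-mean scaling, no filter, other pseudocounts, no variance trend, thinning and the replicate block. Requiring a value of 10 in every library left out miR-301a-3p and changed no call of the others. Under these settings the log2 fold change ran from 3.13 to 3.56 for miR-130b-3p, from 1.85 to 2.50 for miR-130a-3p and from 0.015 to 0.79 for miR-301a-3p, with limma adjusted p-values for miR-130b-3p from 0.0859 to 0.152. With each library left out in turn it ran from 2.70 to 4.35 for miR-130b-3p, from 1.47 to 2.64 for miR-130a-3p, from 0.067 to 1.47 for miR-301a-3p, from -0.036 to 1.85 for miR-130b-5p and from -0.94 to -0.061 for miR-301a-5p. The only change of direction among them was that of miR-130b-5p without WA replicate 2, at -0.036. The number of members called ran from 0 to 1, and was 1 without WA replicate 3. The difference of the arm ratio of miR-130b ran from 2.11 to 3.07, and that of the family share of the library total from 0.149 to 0.324 percentage points. The sign also changed for miR-454-5p (-0.20 to 1.08, negative without WA replicate 3), miR-148b-3p (-0.55 to 0.95, negative without vehicle replicate 1), the arm ratio of miR-454 (-0.75 to 1.05, negative without WA replicate 2) and the ratio of miR-301a-3p to miR-454-3p (-0.74 to 0.62, positive without WA replicate 3). miR-152-3p passed the threshold with no filter (limma adjusted p = 0.0349) and without WA replicate 3 (0.00170).

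The number of all miRNAs with a limma adjusted p under 0.05 was 18. It was 53 with no filter, 0 with a value of 10 in every library (29 with an unadjusted p under 0.05 among 173 tested), and 7 with a pseudocount of 0.1 and with 10. With each library left out it ran from 0 to 147, the highest without WA replicate 3, and was 0 with either vehicle replicate 2 or 3, or either WA replicate 1 or 2, left out, where from 46 to 52 had an unadjusted p under 0.05. The cause was not tested. With the replicate block it was 24, and the log2 fold change of miR-130b-3p stayed at 3.27 with a limma adjusted p of 0.121. The deviations from the group mean had correlations of -0.069, 0.057 and -0.087 between libraries of the same number. Between libraries of different numbers they ran from -0.068 to 0.084. With 3 libraries per group, of which 1 stood apart in each, this cannot decide whether the libraries were paired. The comparison without pairing was kept as the main one. No count test was run on the steps, and thinning took 1 step as 1 read. The arm ratios and the fits of the 5p members were added after seeing the data. At 8 to 50 reads per library for miR-301a-3p, the depth limits what can be said of it.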

Other observations

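Of 7 miRNAs listed for the hairpins and clusters of the family 5 were in the table, and 4 were tested. The 4 were the members miR-130b-5p and miR-301a-5p, whose fits are given above, and miR-454-3p and miR-454-5p. Of these 0 had a limma adjusted and 0 an unadjusted p under 0.05, against 5.50% and 26.3% of all tested miRNAs. miR-454-5p, the other arm of the miR-454 hairpin, gave normalized values of 50.1, 28.8 and 35.1 under vehicle and 52.2, 19.7 and 120 under WA. The 3p arm of miR-454 held 85.4%, 82.0% and 80.4% of the reads of both arms under vehicle and 81.2%, 95.9% and 64.7% under WA, so that WA replicates 2 and 3 lay on opposite sides of the vehicle libraries.

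Among markers of other cell types, 1 of 6 blood miRNAs was in the table, with a summed normalized value from 492 to 911 in the vehicle libraries and of 0, 5.36 and 1223 in the WA libraries. For the other lists, 0 of 3 muscle miRNAs, 1 of 1 liver miRNA and 1 of 2 neural miRNAs were in the table.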
